A study of Homo sapiens with 12 samples.

Results

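Serum response factor (SRF) target genes of the actin cytoskeleton were followed through cantharidin sodium treatment of 2 gastric cancer cell lines. The set holds 10 genes, ACTB, ACTG1, ACTA2, TAGLN, MYL9, TPM1, TPM2, CNN1, CNN2 and VCL, taken by symbol from the 32269 genes of a count matrix, and all 10 were found. The 4 groups of 3 libraries were treated AGS cells, untreated AGS cells, treated MKN1 cells and untreated MKN1 cells. AGS is a gastric adenocarcinoma line and MKN1 a line from a gastric adenosquamous carcinoma, and both are labelled as wild type. All groups share RPMI-1640 medium with fetal bovine serum. Cantharidin, a terpenoid from blister beetles, inhibits serine/threonine protein phosphatases; its sodium salt was used, and the sources used here give neither its dose nor its duration. Each line is a single established line, so that its 3 libraries measure the spread within that line and not among tumours.

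SRF binds a short A and T rich sequence, the CArG box, in the promoters of many contractile and cytoskeletal genes. Its cofactors MRTFA and MRTFB are held by monomeric actin and are set free when actin assembles into filaments, so that actin dynamics feed back on actin gene transcription. A second group of cofactors, the ternary complex factors of the ELK family, links SRF to growth factor signals and early genes such as FOS. In epithelial cells, ACTB and ACTG1 give the bulk of the actin, whereas ACTA2, TAGLN and CNN1 are best known as smooth muscle genes. SRF binding was not measured in these libraries, and the set carries its name from this general knowledge.

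Promoter windows from RefSeq, on the build GRCh38.p14 and spanning 250 bases before to 50 bases after an annotated start, were searched for CArG boxes on both strands. The table used here holds windows for 7 of the 10 genes; ACTB, TAGLN and MYL9 are the other 3. A CArG box lay in the windows of ACTG1 and CNN2, against 1.29% of all 35116 windows of this length. In ACTG1 it ran from 94 to 85 bases before the start, and in CNN2 from 89 to 80 bases before it. One of the 2 windows of the SRF gene itself held 2 such boxes, from 30 to 21 and from 10 to 1 bases before its start, and the other held none. One window of ACTA2 held 2 boxes that differ from the CArG pattern at 1 base, at 121 to 112 and at 71 to 62 bases before the start; 17.9% of all windows held at least one box of that looser kind. The other ACTA2 window and those of TPM1, TPM2, CNN1 and VCL held neither kind. The 250 bases before the start of these 4 windows are given because they show where the box sits in genes with very different levels. Capitals mark the CArG boxes and, in ACTA2, the boxes that are off by 1 base. The windows are chr17:81512800-81513049 on the minus strand for ACTG1, chr19:1026358-1026607 on the plus strand for CNN2, chr10:88952774-88953023 on the minus strand for ACTA2 and chr6:43171019-43171268 on the plus strand for SRF.
ACTG1: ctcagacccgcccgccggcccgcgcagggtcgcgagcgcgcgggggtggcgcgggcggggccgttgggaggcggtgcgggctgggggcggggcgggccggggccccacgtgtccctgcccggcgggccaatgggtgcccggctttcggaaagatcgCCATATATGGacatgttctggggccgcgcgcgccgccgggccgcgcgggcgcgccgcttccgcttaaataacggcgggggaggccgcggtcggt
CNN2: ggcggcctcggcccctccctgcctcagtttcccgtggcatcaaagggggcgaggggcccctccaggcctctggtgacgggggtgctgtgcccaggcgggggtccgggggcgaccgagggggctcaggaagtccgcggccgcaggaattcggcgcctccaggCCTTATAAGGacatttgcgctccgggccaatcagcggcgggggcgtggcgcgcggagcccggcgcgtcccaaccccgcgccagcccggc
ACTA2: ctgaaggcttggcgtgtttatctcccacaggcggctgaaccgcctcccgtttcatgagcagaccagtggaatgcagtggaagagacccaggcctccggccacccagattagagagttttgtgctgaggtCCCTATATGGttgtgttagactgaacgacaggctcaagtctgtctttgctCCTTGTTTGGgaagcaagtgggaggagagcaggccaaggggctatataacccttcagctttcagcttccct
SRF: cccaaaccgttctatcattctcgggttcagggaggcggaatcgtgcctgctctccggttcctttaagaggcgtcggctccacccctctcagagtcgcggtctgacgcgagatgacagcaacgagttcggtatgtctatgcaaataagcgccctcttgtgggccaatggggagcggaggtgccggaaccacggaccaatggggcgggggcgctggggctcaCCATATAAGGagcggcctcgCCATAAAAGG

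The matrix held raw counts, with 28604966 to 51604215 counts a library, and the 3 libraries of a group are described by the submitters as biological replicates. Gene positions are on GRCh38, from GENCODE release 29. Levels are given as CPM (counts-per-million) on scaled library sizes, with the standard deviation (SD) over 3 libraries, and are relative to all RNA of the culture, so that fewer expressing cells and less RNA per cell cannot be told apart. Differences come from 1 quasi-likelihood fit in edgeR over 20280 genes that passed a filter on low counts, with the standard error (SE) of the log2 fold change and p-values adjusted over all 20280 genes; called means an adjusted p below 0.05. Of the epithelial markers, 6 of 6 stood at 1 CPM or more in every group, at levels that differed between the lines. EPCAM averaged 439 CPM in treated and 429 CPM in untreated AGS, against 21.0 CPM in treated and 21.8 CPM in untreated MKN1. CLDN7 and CDH1 also averaged lower in MKN1, whereas KRT8, KRT18 and KRT19 averaged higher there. Squamous markers reached that level for 6 of 6 genes in MKN1 and 2 of 6 in AGS. Of 6 smooth muscle markers, MYOCD, ACTG2 and LMOD1 stayed below 1 CPM in all 4 groups, and the 6 summed to 2.93 to 8.19 CPM a library. Fibroblast markers reached 1 CPM for 2 or 3 of 6 genes a group and summed to 58.4 to 148 CPM a library. Among them LUM averaged 66.6 CPM in treated and 104 CPM in untreated MKN1, and PDGFRA 58.0 CPM in treated and 41.9 CPM in untreated AGS. Each stayed below 1 CPM on average in the other line. Of 4 blood markers, PTPRC stayed below 1 CPM in every group. The 4 summed to 1024 to 1454 CPM in treated AGS and 1057 to 1595 CPM in untreated AGS, nearly all of it LYZ, lysozyme, and to 8.38 to 19.3 CPM in MKN1. HBB, a globin gene, had at most 0.0774 CPM in treated AGS, against 6.80 to 18.9 CPM in untreated AGS; the part of such markers in the results below was not tested. The third untreated MKN1 library stood apart from the other 2 of its group, with correlations across genes of 0.979 and 0.981, against 0.993 between those 2. The treated MKN1 libraries also agreed less than those of AGS. The third treated one had correlations of 0.9862 and 0.9845 with the other 2, against 0.9887 between those 2. In AGS these values were 0.9945 to 0.9957.

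All 10 genes passed the filter, CNN1 only through MKN1. Together they took 0.441% to 0.870% of the counts of a library, nearly all of it ACTB and ACTG1. Read per exon length, as CPM per kilobase (RPKM), ACTB and ACTG1 ranked first and second in all 4 groups. ACTB averaged 1051 ± 93.2 RPKM in treated AGS, 1027 ± 98.6 in untreated AGS, 847 ± 175 in treated MKN1 and 1293 ± 227 in untreated MKN1 (SD, n = 3 each). The next place differed between the lines. It went to CNN2 in treated AGS at 73.4 ± 7.37 RPKM and to MYL9 in untreated AGS at 84.8 ± 13.0 RPKM, where CNN2 followed at 84.1 ± 7.89 RPKM with an overlapping range. In MKN1 it went to TPM2, at 47.8 ± 7.89 RPKM treated and 43.7 ± 6.39 RPKM untreated. The last places, all under 1 RPKM, were ACTA2, TPM2 and CNN1 in AGS, and CNN1 and ACTA2 in MKN1, with TAGLN below 1 RPKM in untreated MKN1 as well. The ranges of neighbours also overlapped for VCL and MYL9 in treated AGS and for VCL and TAGLN in untreated AGS. In both groups of MKN1 they overlapped for ACTB and ACTG1, for CNN2, MYL9 and VCL, and for TAGLN and CNN1. In untreated MKN1 those of CNN1 and ACTA2 overlapped as well.

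**Figure D1:**
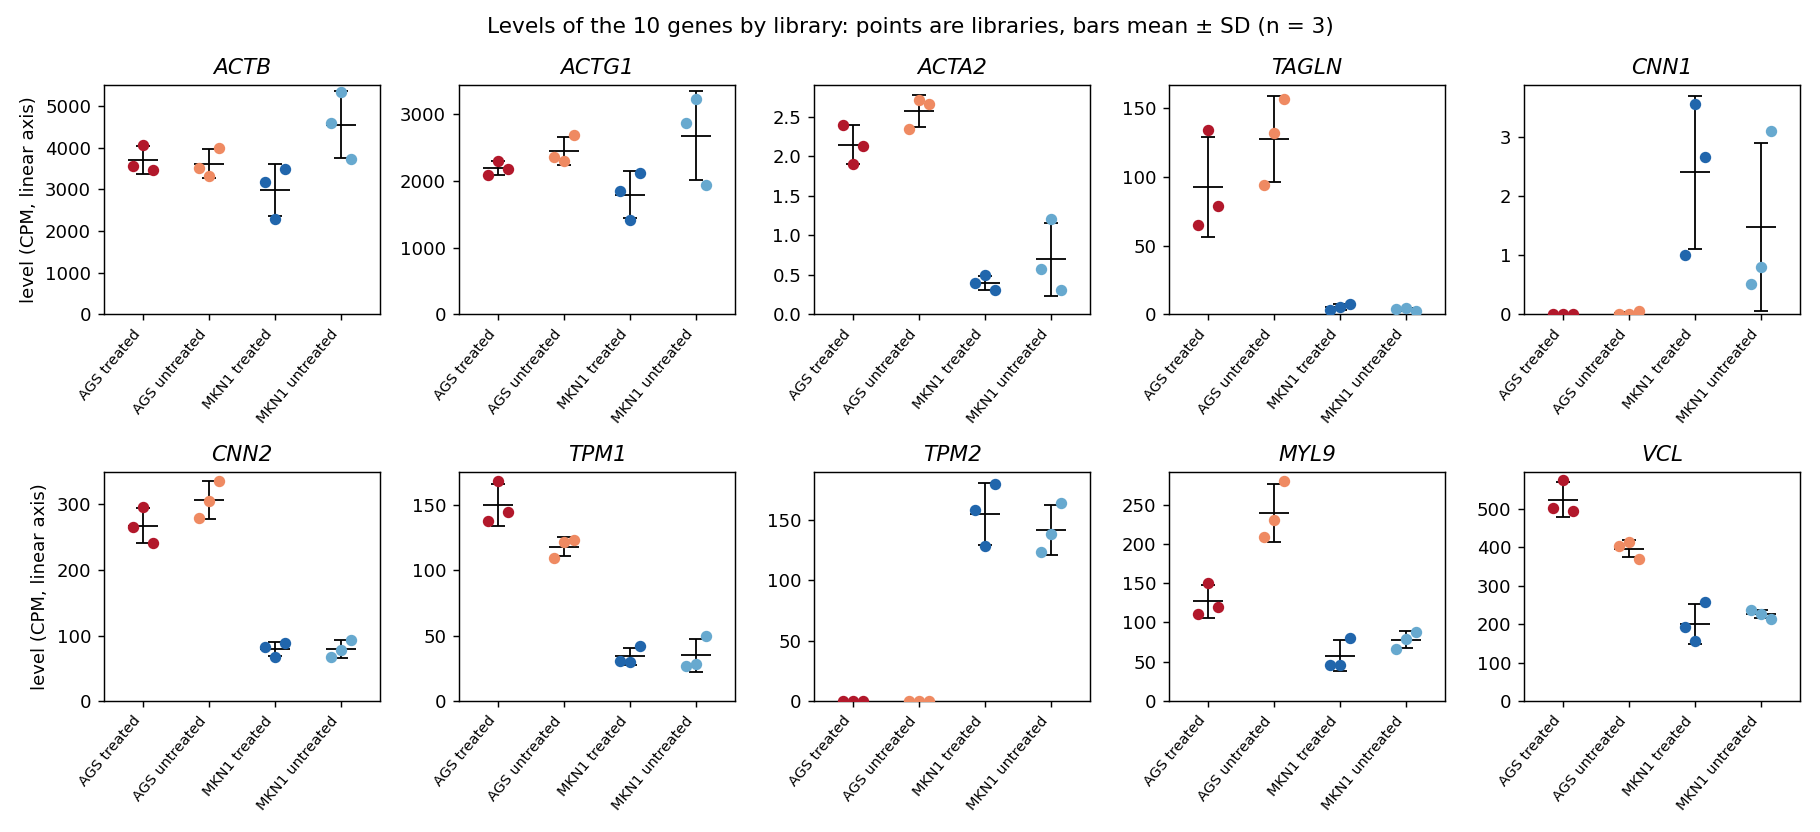
Level of each of the 10 genes in CPM on a linear axis that starts at 0, by library (points) with the mean and SD of 3 libraries (bars). MYL9 in AGS and ACTB in MKN1 lie lower in all treated than in all untreated libraries; TPM2 and CNN1 are near 0 in AGS, and TAGLN is near 0 in MKN1.

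With treatment, 1 of the 10 genes was called in each line, and it was not the same gene. In AGS it was MYL9, which fell. In MKN1 it was ACTB, which also fell. In AGS 20.8% of all genes were called, 9.21% higher and 11.6% lower, against 1 of 9 genes here, CNN1 being left out at its floor. In MKN1 6.7% of all genes were called, 2.8% higher and 3.9% lower, against 1 of the 10. The share in MKN1 moved widely with single libraries: 104 to 1569 genes were called higher and 232 to 1591 lower with 1 library left out, against 567 higher and 791 lower with all 12, and as few as 5 higher and 29 lower with only the groups compared in the fit. In AGS those ranges were 859 to 2482 higher and 1192 to 3051 lower, against 1867 and 2347 with all 12. The median log2 fold change of the 9 genes was -0.20 in AGS, against -0.01 over all genes, and -0.17 in MKN1, against 0.01 over all genes. A per-library trend on GC content and length differed between treated and untreated AGS. Its log2 value for MYL9 was -0.168 to -0.164 in treated and 0.027 to 0.157 in untreated AGS libraries. With that trend removed ACTG1 in AGS stood at 0.045. Over 10 other settings of the fit CNN2 in AGS ranged from -0.201 to -0.034 and ACTB from 0.03 to 0.178. The median was not computed with the trend removed.

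Cytoplasmic actins form the filaments of every cell. ACTB, beta-actin, at chr7:5527147-5563784 on the minus strand, had 3165, 2294 and 3481 CPM in treated MKN1 libraries, against 4594, 5325 and 3728 CPM in untreated MKN1 libraries. The groups did not overlap, and the third untreated library was the lowest of its group. Groups that do not overlap were seen in MKN1 in 11.4% of all genes with treated below untreated and in 9.95% with treated above; ACTB was the 1 of the 10 genes with such a gap. ACTB fell by 0.61 on the log2 scale (SE 0.165, adjusted p = 0.0449, edgeR). This call is at the edge of the threshold. It held in 2 of 12 fits that each left out 1 library, those without the third treated or the third untreated MKN1 library, and the adjusted p over the 12 fits lay between 0.0117 and 0.181. In AGS, ACTB had 3569, 4072 and 3456 CPM in treated libraries and 3519.95, 3322 and 3997 CPM in untreated libraries. The AGS groups overlapped, and the log2 fold change was 0.03 with a 95% interval of -0.32 to 0.39 (adjusted p = 0.907). The difference between the 2 effects, MKN1 minus AGS, was -0.64 (SE 0.232, adjusted p = 0.0781), which was not called. It was called without the third treated MKN1 library (-0.77, adjusted p = 0.0491) and without the third untreated MKN1 library (-0.77, adjusted p = 0.0279).

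ACTG1, gamma-actin, at chr17:81509971-81523847 on the minus strand, is the gene with a CArG box shown above. It had 1842, 1415 and 2108 CPM in treated MKN1 libraries, against 2867, 3215 and 1929 CPM in untreated MKN1 libraries. The third untreated library fell inside the treated range, and the log2 fold change of -0.58 (SE 0.179) was not called (adjusted p = 0.0727). Without that library both cytoplasmic actins were called lower in treated MKN1, ACTG1 at -0.77 (adjusted p = 0.00611) and ACTB at -0.74 (adjusted p = 0.0117), and the effect on ACTG1 differed from that in AGS by -0.61 (adjusted p = 0.0499). ACTG1 in MKN1 was not called in the other 11 of 12 fits that left out 1 library (adjusted p up to 0.265). Nor was its difference from AGS (adjusted p up to 0.514). In AGS it had 2090.4, 2296 and 2168 CPM in treated libraries and 2355, 2287 and 2677 CPM in untreated libraries, overlapping by 1 library, and ACTG1 was not called (log2 fold change -0.16, SE 0.179, adjusted p = 0.559). ACTB made up 61.4% to 63.9% of the counts of the 2 genes in treated AGS, against 59.2% to 59.9% in untreated AGS. That shift of 3.15 percentage points separated the groups completely, yet 3 against 3 libraries cannot give an exact two-sided permutation p below 0.1, which was the value found. In MKN1 the share of ACTB was 61.8% to 63.2% in treated and 61.6% to 65.9% in untreated libraries, which overlapped.

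ACTA2, smooth muscle alpha-actin, at chr10:88935074-88991339 on the minus strand, was a minor actin in both lines. It had 2.40, 1.91 and 2.13 CPM in treated AGS and 2.34, 2.71 and 2.67 CPM in untreated AGS. The log2 fold change was -0.26 (SE 0.338, adjusted p = 0.617). In MKN1 it was counted 13, 15 and 12 times in treated libraries and 17, 33 and 10 times in untreated libraries, and the log2 fold change of -0.79 (SE 0.416) was not called (adjusted p = 0.276). Without the third untreated MKN1 library, the one with 10 counts, it was called at -1.16 (adjusted p = 0.0421). ACTA2 in MKN1 was not called in the other 11 of 12 fits that left out 1 library (adjusted p up to 0.867). Of its exon bases, 30.1% overlap ACTA2-AS1 or FAS on the other strand, and the library kit does not mark the strand, so that reads of these genes cannot be told apart there. FAS averaged 7.95 CPM in treated AGS, 12.0 CPM in untreated AGS, 33.6 CPM in treated MKN1 and 31.5 CPM in untreated MKN1.

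MYL9 encodes a regulatory light chain of myosin II, whose phosphorylation switches contraction on. The gene lies at chr20:36541484-36551447 on the plus strand. It had 111, 151 and 119.7 CPM in treated AGS libraries, against 208, 229.9 and 279.7 CPM in untreated AGS libraries. Every treated library lay below every untreated one, which 26.8% of all genes also showed in AGS. MYL9 fell by 0.91 on the log2 scale, or 1.88-fold (SE 0.212, adjusted p = 0.0106, edgeR). The call held in 11 of 12 fits that left out 1 library and was lost without the third untreated AGS library, where the log2 fold change was -0.79 (adjusted p = 0.0519). It held in all 10 other settings of the fit, where the log2 fold change lay between -0.917 and -0.666. The MKN1 values of MYL9 were 46.3, 46.1 and 80.6 CPM in treated libraries and 66.5, 79.2 and 88.2 CPM in untreated libraries. These groups overlapped through the third treated library, and the log2 fold change was -0.43 (SE 0.212, adjusted p = 0.239). Without that library MYL9 was called lower in treated MKN1 as well, at -0.76 (adjusted p = 0.0278). In the other 11 of 12 fits that left out 1 library it was not called in MKN1 (adjusted p up to 0.511). The effects of the lines differed by 0.48 (MKN1 minus AGS, SE 0.298, adjusted p = 0.301), so that a fall particular to AGS was not shown.

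Tropomyosins lie along actin filaments and gate the access of myosin and cofilin. TPM1, at chr15:63042632-63071915 on the plus strand, had 138, 168 and 144 CPM in treated AGS, against 109, 122 and 123 CPM in untreated AGS. All treated libraries were higher, as for 25.6% of all genes in AGS, but the log2 fold change of 0.35 (SE 0.203) was not called (adjusted p = 0.247). In MKN1 TPM1 averaged 34.2 ± 6.56 CPM treated and 35.0 ± 12.5 CPM untreated, with an adjusted p of 0.946. TPM2, at chr9:35681992-35690121 on the minus strand, gave 15, 7 and 13 counts in treated AGS and 25, 12 and 11 counts in untreated AGS. In MKN1 it averaged 155 ± 25.6 CPM treated and 142 ± 20.7 CPM untreated. Its log2 fold change with treatment was -0.22 in AGS (adjusted p = 0.708) and 0.13 in MKN1 (adjusted p = 0.701). Some 21.4% of the exon bases of TPM1 overlap genes on the other strand, and TPM1-AS, one of them, stayed at or below 1.29 CPM.

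The calponin family of actin-binding proteins includes TAGLN, CNN1 and CNN2, and none of the 3 was called with treatment. TAGLN, transgelin, at chr11:117199321-117204782 on the plus strand, had 65.1, 134 and 78.6 CPM in treated AGS and 94.2, 132 and 157 CPM in untreated AGS. The groups overlapped, because the second treated library was higher than 2 of the untreated ones. TAGLN in MKN1 had 3.37, 5.12 and 7.79 CPM in treated libraries and 3.98, 4.63 and 2.58 CPM in untreated libraries. The fold changes pointed in opposite directions, -0.46 in AGS (adjusted p = 0.308) and 0.56 in MKN1 (adjusted p = 0.374), and their difference of 1.02 was not called (SE 0.47, adjusted p = 0.16). CNN2, calponin 2, at chr19:1026581-1039068 on the plus strand, averaged 268 ± 26.9 CPM in treated AGS and 307 ± 28.8 CPM in untreated AGS (log2 fold change -0.20, adjusted p = 0.352). In MKN1 it averaged 79.6 ± 11.0 CPM treated and 79.4 ± 13.1 CPM untreated, with a 95% interval of the log2 fold change of -0.31 to 0.31. CNN1, calponin 1, at chr19:11538717-11550323 on the plus strand, had 0 counts in all treated AGS libraries and 2 counts in 1 of 3 untreated AGS libraries, so that no fold is given. In MKN1 it had 1.00, 3.55 and 2.65 CPM in treated and 0.510, 0.802 and 3.10 CPM in untreated libraries, and the adjusted p was 0.57.

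VCL encodes vinculin, which couples adhesion sites to actin filaments, and lies at chr10:73995193-74121363 on the plus strand. It had 502, 574 and 493 CPM in treated AGS libraries, against 404, 414 and 370.2 CPM in untreated AGS libraries. The treated libraries were all higher, but the log2 fold change of 0.40 (SE 0.152) was not called (adjusted p = 0.079). It was called in fits without the second or the third treated MKN1 library (adjusted p = 0.0324 and 0.0186), which changed the pooled spread and not the AGS values. Over 10 other settings of the fit the log2 fold change of VCL in AGS lay between 0.286 and 0.419, with an adjusted p of 0.00194 to 0.231. VCL in MKN1 had 191, 155 and 257 CPM in treated and 237, 227 and 214 CPM in untreated libraries, where the treated libraries spanned the untreated ones (log2 fold change -0.17, adjusted p = 0.545). The effects of the lines differed by -0.57 (MKN1 minus AGS, SE 0.215, adjusted p = 0.0904), or by -0.79 (adjusted p = 0.00933) without the third treated MKN1 library. In the other 11 of 12 fits that left out 1 library this difference was not called (adjusted p up to 0.189). Over all genes 15.7% were called for a difference between the lines' effects, 8.38% higher and 7.3% lower, against 0 of 9 among the genes followed here. At an unadjusted p under 0.05 in the edgeR fit there were ACTB, VCL and TAGLN, and a Wald test in DESeq2 called ACTB alone after adjustment. AP3M1 overlaps 11.1% of the exon bases of VCL on the other strand.

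**Figure D2:**
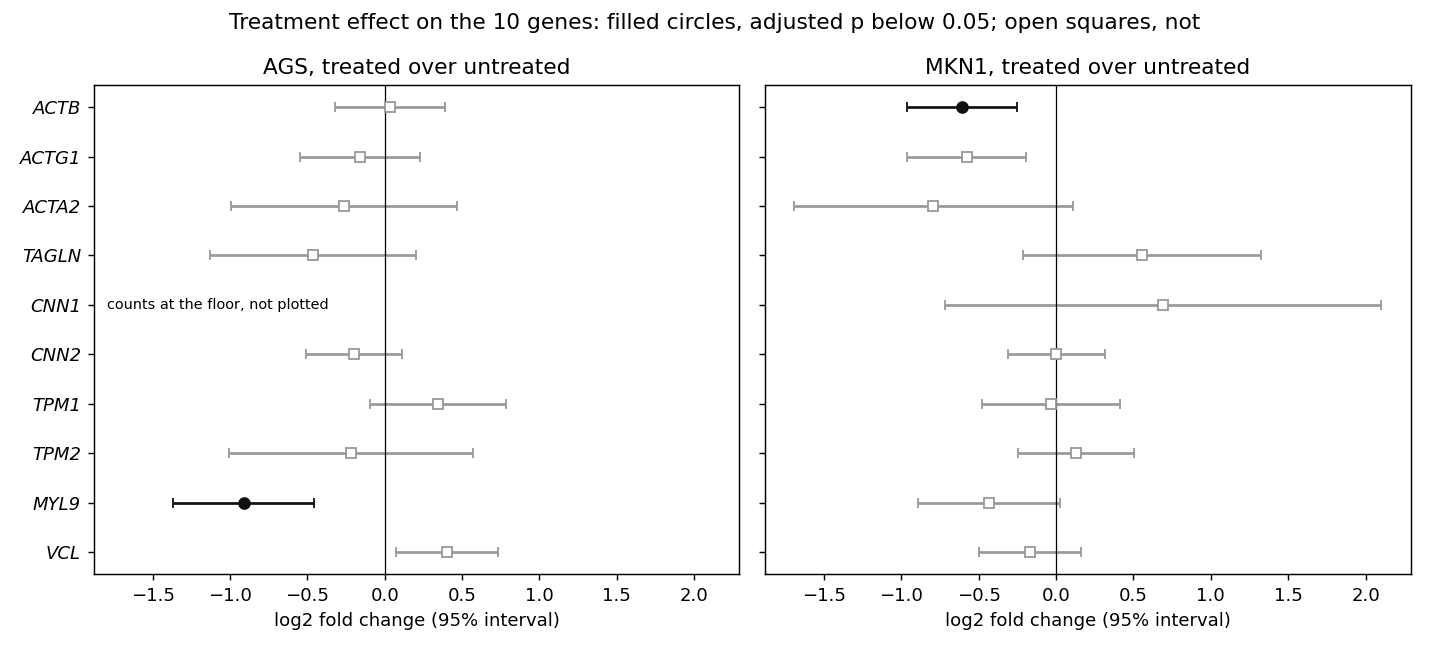
Log2 fold change of treated over untreated cells (horizontal axis, with 95% intervals) for the 10 genes in AGS (left) and MKN1 (right). Filled circles, MYL9 in AGS at -0.91 and ACTB in MKN1 at -0.61, passed the adjusted threshold and open squares did not; CNN1 is not plotted in AGS.

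Between the lines TPM2 stood higher in MKN1, and TAGLN, CNN2, TPM1, ACTA2, MYL9 and VCL lower, in treated and in untreated cells alike. Leaving out CNN1, which passed the filter only through MKN1, 7 of 9 genes were called in treated cells, 1 higher and 6 lower in MKN1. Of all genes 68.1% were called there, 36.8% higher and 31.4% lower. In untreated cells the counts were again 1 higher and 6 lower, where 66.3% of all genes were called, 34.9% higher and 31.4% lower. A call between the lines was thus the usual case, and the share among the 9 is close to it. ACTB and ACTG1 were the 2 genes not called, at -0.31 (adjusted p = 0.108) and -0.29 (adjusted p = 0.168) in treated cells and at 0.33 (adjusted p = 0.0905) and 0.13 (adjusted p = 0.539) in untreated cells. ACTB was called at -0.44 (adjusted p = 0.0434) in treated cells without the third treated MKN1 library. With the GC and length trend removed, both genes were called lower in treated MKN1 than in treated AGS. ACTB then stood at -0.471 (adjusted p = 0.0202) and ACTG1 at -0.452 (adjusted p = 0.0356). In untreated cells ACTB was called at 0.46 (adjusted p = 0.0275) without the third untreated MKN1 library and at 0.33 (adjusted p = 0.0411) without the second treated one. It was also called there in 5 of 10 other settings of the fit, among them DESeq2 size factors, at 0.40 (adjusted p = 0.0439). The comparisons of treated cells and of untreated cells share no libraries with each other, but each shares 2 groups with the treatment comparisons. The median log2 difference of the 9 genes was -1.38 in treated and -1.62 in untreated cells, against 0.08 and 0.04 over all genes.

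TPM2 had the widest gap among the genes counted in both lines. It had 158, 128 and 179 CPM in treated MKN1 libraries, against 0.456, 0.181 and 0.364 CPM in treated AGS libraries. In untreated cells it had 124, 138 and 164 CPM in MKN1, against 0.492, 0.343 and 0.282 CPM in AGS. It was 469-fold higher in MKN1 among treated cells (log2 difference 8.87, SE 0.272, adjusted p = 2.74e-11) and 369-fold higher among untreated cells (8.53, SE 0.264, adjusted p = 3.19e-11). CNN1 shared this direction at much lower counts, 244 in the 3 treated MKN1 libraries against 0 in treated AGS. With a floor of 3 counts over the AGS group, the pooled counts put MKN1 at least 85.4-fold higher, a bound that leaves out the spread between libraries. CNN1 passed the filter only through MKN1, so that it lends no support to the difference in TPM2. In untreated cells 138 counts in MKN1 stood against 2 in AGS, a ratio of 96.2 with a 95% counting interval of 26.1 to 802. That interval covers counting error only. Of the 138 counts 101 came from the third untreated MKN1 library, with 15 and 22 in the others, and both AGS counts came from 1 library.

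TAGLN ran the other way. Its levels in treated MKN1, 3.37 to 7.79 CPM, stood against 65.1 to 134 CPM in treated AGS, and in untreated cells 2.58 to 4.63 CPM in MKN1 stood against 94.2 to 157 CPM in AGS. It was lower in MKN1, with a log2 difference of -4.08 in treated cells (SE 0.358, adjusted p = 3.59e-07) and of -5.10 in untreated cells (SE 0.379, adjusted p = 7.64e-08). PCSK7 on the other strand overlaps 11.4% of its exon bases and averaged 67.5 CPM in treated and 74.5 CPM in untreated MKN1, and its part in the low TAGLN counts of MKN1 was not tested. CNN2, of the same family, was 3.36-fold lower in MKN1 in treated cells and 3.86-fold lower in untreated cells. TPM1 was 4.38-fold lower in treated and 3.37-fold lower in untreated MKN1. ACTA2 was 5.39-fold lower in treated and 3.73-fold lower in untreated MKN1. MYL9 was 2.20-fold lower in treated and 3.07-fold lower in untreated MKN1, and VCL was 2.60-fold lower in treated and 1.75-fold lower in untreated MKN1. The adjusted p-values of these 5 genes lay between 9.83e-08 and 0.000531. All 7 called genes separated the lines without overlap in both conditions. Of all genes, 38.9% lay above and 35.1% below in treated MKN1, and 36.8% above and 34.6% below in untreated MKN1.

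**Figure D3:**
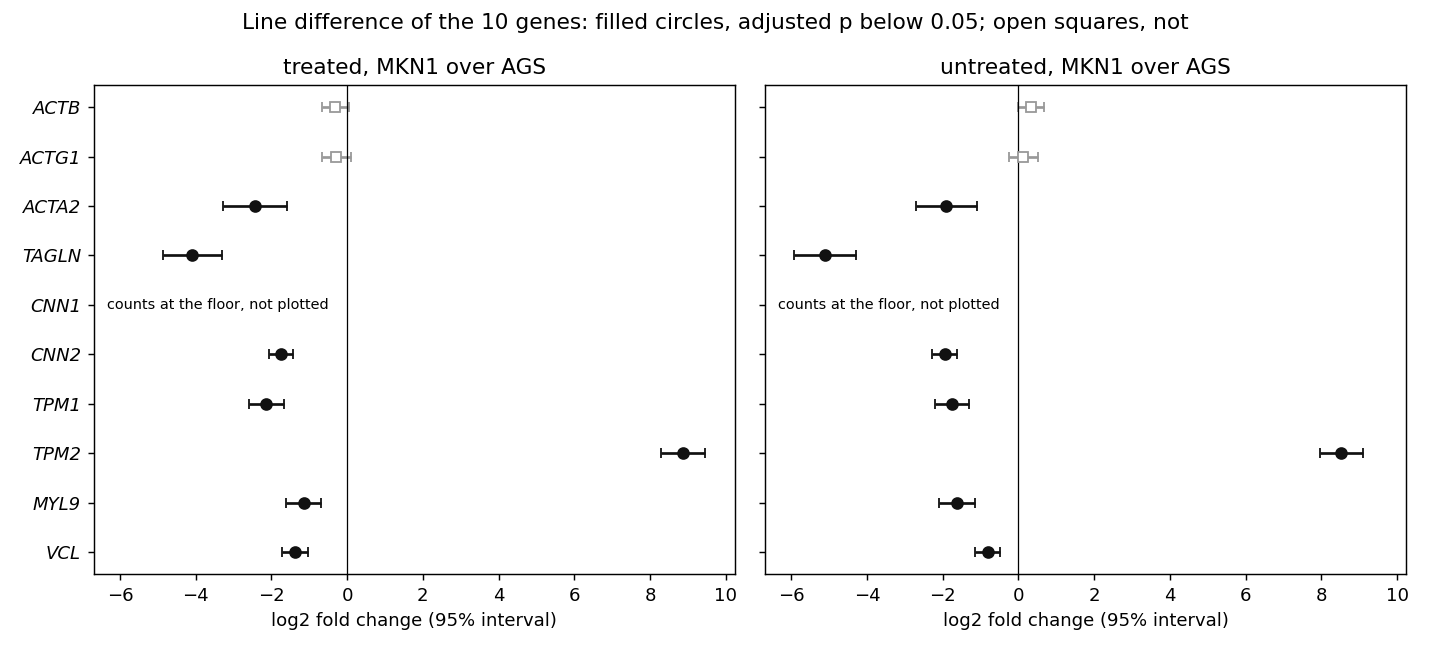
Log2 fold change of MKN1 over AGS (horizontal axis, with 95% intervals) in treated (left) and untreated cells (right). TPM2 stands at 8.87 and 8.53, TAGLN at -4.08 and -5.10, and only the open squares of ACTB and ACTG1 did not pass the adjusted threshold; CNN1 is not plotted because AGS is at or near 0.

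Most of the 10 genes have close relatives in the genome, and these families were listed after the values had been seen. Shares of a family are per exon length. Of the tropomyosin genes, TPM2 held 18.0% ± 1.62 in treated MKN1, against 0.0415% ± 0.019 in treated AGS, and 15.2% ± 1.94 in untreated MKN1, against 0.0486% ± 0.0152 in untreated AGS. TPM1 held 0.997% in treated MKN1 against 4.62% in treated AGS, and 0.943% in untreated MKN1 against 3.86% in untreated AGS; its long annotated exons lower this share. TPM3 and TPM4 made up the rest in both lines. TPM4 had 1232 ± 89.3 CPM in treated AGS, against 956 ± 27.8 CPM in untreated AGS, and rose by 0.37 (SE 0.094, adjusted p = 0.0167). In MKN1 it had 1127 ± 28.7 CPM treated and 1368 ± 82.9 CPM untreated (log2 fold change -0.28, adjusted p = 0.0929), and the effects differed by -0.65 (SE 0.133, adjusted p = 0.00653). The rise in AGS was lost in 3 of 12 fits that left out 1 library, with an adjusted p of 0.0815 without the second treated, 0.0711 without the first untreated and 0.0671 without the third untreated AGS library, whereas the difference between the lines held in all 12.

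In the calponin and transgelin family TAGLN2, the non-muscle transgelin, dominated. It held 53.2% ± 1.46 of the family in treated AGS and 63.8% ± 2.29 in untreated AGS, and 91.3% ± 0.394 in treated MKN1 and 90.2% ± 1.21 in untreated MKN1. TAGLN2 fell to 492 ± 33.3 CPM in treated AGS, against 977 ± 149 CPM in untreated AGS (log2 fold change -0.99, SE 0.142, adjusted p = 0.00092). In MKN1 it had 1010 ± 137 CPM treated and 992 ± 127 CPM untreated, and the effects differed by 1.02 (adjusted p = 0.00528). CNN3 fell in treated AGS as well, to 218 ± 2.48 CPM against 299 ± 26.1 CPM (log2 fold change -0.45, adjusted p = 0.0233), a call lost in 5 of 12 fits that left out 1 library, those without any 1 of the 3 treated libraries or the second or the third untreated AGS library (adjusted p 0.0677 to 0.0885). CNN3 was 5.26-fold lower in treated MKN1 than in treated AGS, like CNN2. TAGLN2 did not follow TAGLN between the lines: its log2 difference, MKN1 minus AGS, was 1.04 in treated cells (adjusted p = 2.46e-05) and 0.02 in untreated cells (adjusted p = 0.9).

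Among the regulatory light chain genes MYL9 held 9.25% ± 0.817 in treated AGS and 16.9% ± 1.65 in untreated AGS. MYL12B, the most abundant of them, stood at 60.7% and 59.9%. MYL12A had 473 ± 30.7 CPM in treated AGS and 376 ± 14.4 CPM in untreated AGS (log2 fold change 0.33, adjusted p = 0.0671), which was called higher in 6 of 10 other settings of the fit, and MYL12B had a log2 fold change of -0.02 (adjusted p = 0.933), so that neither of its close relatives was called lower with MYL9. In MKN1 the share of MYL9 was 10.8% ± 4.25 treated and 12.9% ± 3.97 untreated. With the length of the longest transcript in place of all exon bases, MYL9 held 5.07% in treated AGS and 9.91% in untreated AGS. Of the other actin genes, ACTA1, skeletal muscle actin, had 22 counts in treated AGS and 148 in untreated AGS (log2 fold change -2.48, adjusted p = 0.0212), a call lost without the first treated, second treated, first untreated or the third untreated AGS library (adjusted p 0.0684 to 0.0906). ACTA1 passed the filter on low counts only through untreated AGS, the group where it is high, so that its call lends no support to a fall. ACTBL2 was higher in MKN1, at 15.5 ± 0.571 CPM treated against 1.07 ± 0.35 CPM in treated AGS and at 32.4 ± 18.9 CPM untreated against 1.23 ± 0.248 CPM in untreated AGS, with adjusted p = 6.5e-06 and 1.12e-06.

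**Figure D4:**
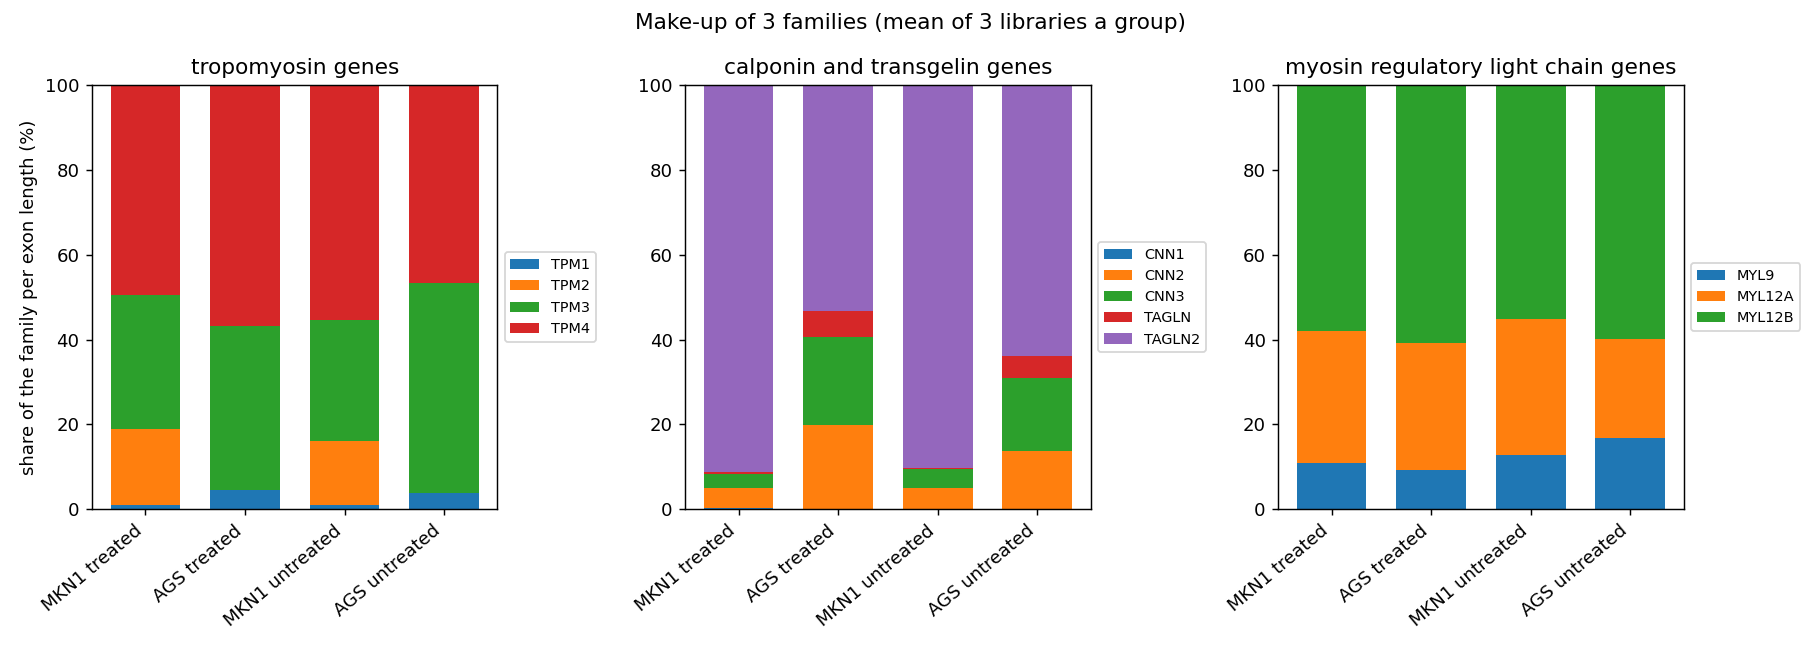
Share of each gene in its family per exon length (vertical axis, percent, mean of 3 libraries) for tropomyosins, calponins with transgelins, and myosin regulatory light chains. TPM2 holds 18.0% in treated MKN1 and 0.0415% in treated AGS, and TAGLN2 holds over 90% of its family in MKN1.

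The transcript of SRF itself had 49.0 ± 3.80 CPM in treated AGS and 61.0 ± 2.14 CPM in untreated AGS. It fell by 0.32 on the log2 scale (SE 0.099, adjusted p = 0.039), without overlap. That call held in 5 of 12 fits that left out 1 library and was lost without any 1 of the 6 AGS libraries, or without the second untreated MKN1 library, with an adjusted p of up to 0.161. With the trend on GC content and transcript length removed, the log2 fold change of SRF was -0.09 (adjusted p = 0.462). In MKN1 SRF had 64.4 ± 4.76 CPM treated and 73.4 ± 4.01 CPM untreated, and the log2 fold change of -0.19 was not called (adjusted p = 0.276). Its cofactor MRTFA had 30.6 ± 5.20 CPM in treated AGS and 45.0 ± 8.78 CPM in untreated AGS (log2 fold change -0.55, adjusted p = 0.0342), in groups that overlapped, and 32.0 ± 5.28 CPM in treated against 31.9 ± 0.781 CPM in untreated MKN1. The AGS call of MRTFA held in 8 of 12 such fits and was lost without the first or the third treated or the second or the third untreated AGS library, where the adjusted p was 0.0858 to 0.154. It was also lost with the GC and length trend removed (-0.367, adjusted p = 0.0918) and without a filter (-0.56, adjusted p = 0.0567). MRTFB had 83.0 ± 4.73 CPM in treated AGS and 61.2 ± 6.65 CPM in untreated AGS, which was not called (log2 fold change 0.44, adjusted p = 0.0765). MRTFB separated the lines: it was lower in MKN1, with a log2 difference of -2.05 in treated cells (adjusted p = 2.4e-07) and -1.86 in untreated cells (adjusted p = 6.5e-07). SRF was slightly higher in MKN1, at 0.39 in treated cells (adjusted p = 0.00315) and 0.27 in untreated cells (adjusted p = 0.0297). The call in untreated cells held in 8 of 12 fits that left out 1 library (adjusted p up to 0.105) and was lost without a filter (0.0532). MRTFA was called lower in untreated MKN1 than in untreated AGS in 9 of 12 such fits, with log2 differences of -0.64 to -0.357 over the 12.

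RHOB, a small GTPase induced by stress, rose to 255 ± 21.0 CPM in treated AGS, against 87.4 ± 8.89 CPM in untreated AGS (log2 fold change 1.55, adjusted p = 0.000121). Its relative RHOC fell by 0.68 (adjusted p = 0.00423) and the formin gene DIAPH1 by 0.57 (adjusted p = 0.00332). In treated MKN1, ELK3, a ternary complex factor, rose by 0.65 (adjusted p = 0.0232) and the kinase gene ROCK1 by 0.59 (adjusted p = 0.0202). ELK3 was not called without the second treated or the first or second untreated MKN1 library (adjusted p 0.0529 to 0.115), nor ROCK1 without the second treated or the second untreated one (0.0667 and 0.0758). With only the groups compared in the fit neither was called (adjusted p = 0.0931 for ELK3 and 0.143 for ROCK1).

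A list of 36 other cytoskeletal targets of SRF and MRTF held 7 genes that rose and 7 that fell in treated AGS, and 1 that rose and 3 that fell in treated MKN1. All genes gave 9.21% higher and 11.6% lower in AGS, and 2.8% higher and 3.9% lower in MKN1. With 1 library left out the list counts were 1 to 9 higher and 2 to 11 lower in AGS, and 0 to 1 higher and 2 to 8 lower in MKN1. FHL1, at 0 in treated AGS, is among those that fell; without it the median log2 fold change of the list was 0.02 in AGS and -0.05 in MKN1. CCN2, a secreted matricellular protein, had 116 ± 60.9 CPM in treated AGS, against 30.0 ± 13.6 CPM in untreated AGS, and rose by 1.95 (adjusted p = 0.00888). ANKRD1, an ankyrin repeat cofactor, moved in opposite directions. It had 244 ± 67.6 CPM in treated AGS, against 73.3 ± 23.4 CPM in untreated AGS (log2 fold change 1.73, adjusted p = 0.0152). In MKN1 it had 6.02 ± 0.852 CPM treated, against 41.0 ± 25.3 CPM untreated (log2 fold change -2.76, adjusted p = 0.00707), and the effects differed by -4.50 (adjusted p = 0.000985). The AGS call of ANKRD1 was lost without the second treated, first untreated or the third untreated AGS library (adjusted p 0.0567 to 0.0648). Its MKN1 call was lost with only the groups compared in the fit (adjusted p = 0.0567). CCN1, close to CCN2, fell to 312 ± 29.4 CPM in treated MKN1, against 778 ± 218 CPM in untreated MKN1 (log2 fold change -1.32, adjusted p = 0.00588). AMOTL2, an angiomotin gene, fell in MKN1 by 0.56 (adjusted p = 0.0408), a call that held in 3 of 12 fits with 1 library left out, those without the second treated AGS, the third treated MKN1 or the third untreated MKN1 library. TPM4, TAGLN2 and CNN3, described above, are counted in this list too. CCN1, CCN2 and ANKRD1 are also known targets of YAP and TEAD.

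**Figure D5:**
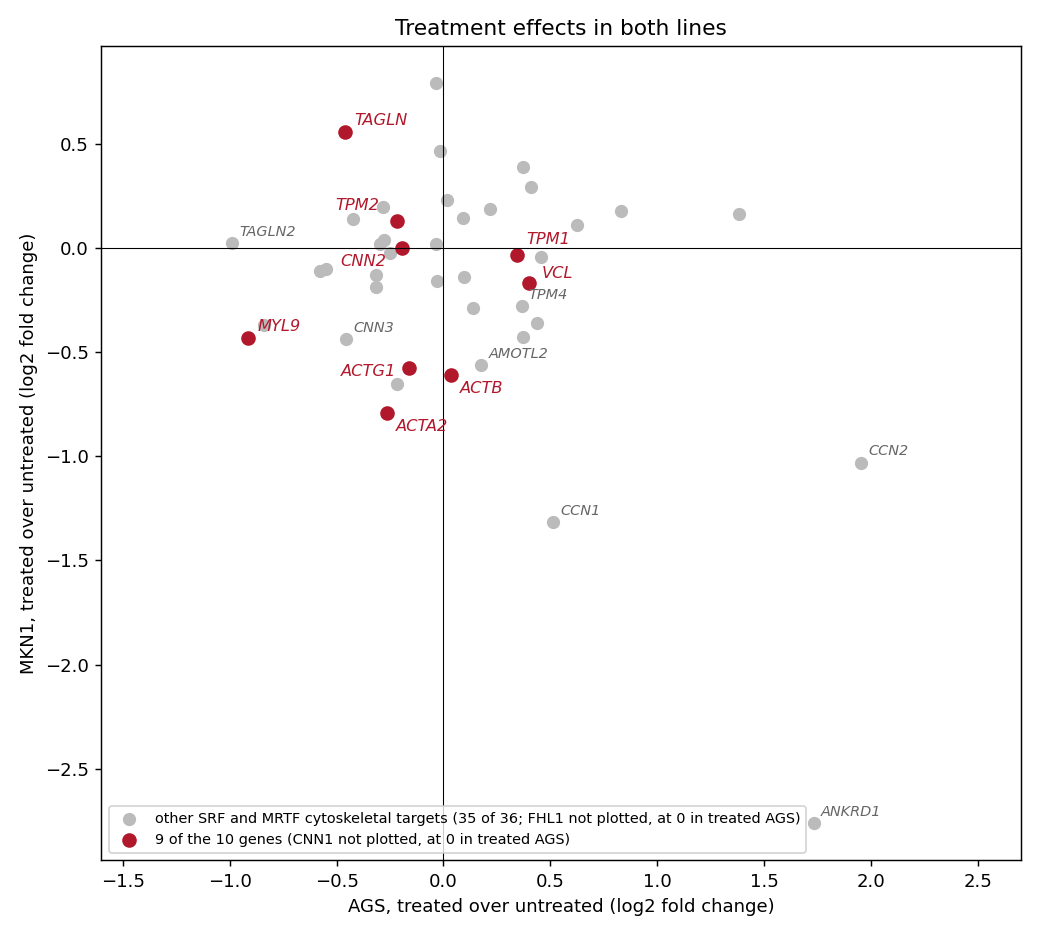
Log2 fold change of treated over untreated cells in AGS (horizontal axis) and MKN1 (vertical axis), with red points for 9 of the 10 genes and grey points for 35 other SRF and MRTF targets. MYL9 is the red point farthest left, at -0.91 in AGS, whereas ANKRD1 lies at 1.73 in AGS and -2.76 in MKN1.

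The early genes that SRF controls with ternary complex factors numbered 12. In treated AGS 1 rose and 3 fell, with a list median of -0.38, and in treated MKN1 1 rose, with a list median of 0.01. Of all genes 9.21% rose and 11.6% fell in AGS. With 1 library left out the list counts were 0 to 2 higher and 0 to 4 lower in AGS, and 0 to 2 higher and 0 to 3 lower in MKN1. FOS fell in treated AGS to 31.0 ± 1.89 CPM, against 44.4 ± 4.48 CPM in untreated AGS (log2 fold change -0.52, adjusted p = 0.0281), and it rose in treated MKN1 to 71.0 ± 13.8 CPM, against 44.9 ± 6.46 CPM in untreated MKN1 (log2 fold change 0.66, adjusted p = 0.023). The effects on FOS differed by 1.18 (adjusted p = 0.00336). FOSB fell in AGS by 1.16 (adjusted p = 0.028), DUSP1, a MAP kinase phosphatase, fell by 0.57 (adjusted p = 0.0476), and KLF6, a zinc finger factor, rose by 0.79 (adjusted p = 0.0112). With 1 library left out, the DUSP1 call held in 3 of 12 fits, those without the first or the third treated or the third untreated MKN1 library (adjusted p up to 0.166 in the others), and in 4 of 10 other settings, and that of FOSB in 7 of 12 (up to 0.0969, lost without any treated or the second or the third untreated AGS library). The AGS call of FOS was lost without any 1 AGS library but the first untreated one (0.067 to 0.101). The KLF6 call was lost without the second treated or the third untreated AGS library (up to 0.0549), and the FOS call in MKN1 without the third treated or first untreated MKN1 library (0.0524 and 0.0604). FOS in MKN1 was also not called with only the groups compared in the fit (adjusted p = 0.14) or with a replicate block (0.0538).

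The 25 genes of actin monomer binding and filament turnover held 7 that fell and 1 that rose in treated AGS, with a list median of -0.16; in treated MKN1 1 rose and none fell, with a list median of 0.03. The shares over all genes were 11.6% lower and 9.21% higher in AGS. With 1 library left out 4 to 9 of the list were called lower and 0 to 1 higher in AGS, and 0 to 3 higher in MKN1. CFL1, cofilin, which severs filaments, fell to 432 ± 8.00 CPM in treated AGS, against 737 ± 105 CPM in untreated AGS (log2 fold change -0.77, adjusted p = 0.0044). PFN1, profilin, which feeds monomers to growing filaments, fell by 0.75 (adjusted p = 0.00752), and CAPZB, a filament capping subunit, fell by 0.75 (adjusted p = 0.00489). CFL2, the muscle cofilin, was the 1 that rose in MKN1, by 0.53 (adjusted p = 0.0377), a call that held in 2 of 12 fits with 1 library left out, those without the first treated AGS or the third treated MKN1 library. Of 10 genes of non-muscle myosin II and its regulators, 2 rose and 1 fell in AGS, and in MKN1 none was called, where 9.21% of all genes rose and 11.6% fell in AGS. With 1 library left out 0 to 3 were called higher in AGS and 0 to 2 lower in MKN1. MYL6, the essential light chain that pairs with MYL9 and its relatives, fell to 422 ± 10.6 CPM in treated AGS, against 929 ± 115 CPM in untreated AGS (log2 fold change -1.14, adjusted p = 0.00197), and MPRIP, which tethers myosin phosphatase, rose by 0.38 (adjusted p = 0.0253), a call lost without any 1 AGS library but the first treated one (adjusted p 0.072 to 0.105).

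The 10 genes did not all move together from library to library. With each gene's log2 CPM centred within its line, the Pearson correlation of a gene with the mean of the 10 over 12 libraries was highest for MYL9, at 0.839, and CNN2, at 0.737, and lowest for TPM2, at 0.144, and ACTA2, at 0.124, although each is part of that mean. Outside the set the genes most like the mean were UNC13D (0.963), SBF1 (0.962), EMC4 (0.96), CLPTM1L (0.95) and TADA2B (0.932). These values describe likeness over 12 libraries that share library preparation and scaling. They were chosen as the highest among protein-coding genes that averaged at least 5 CPM in both lines and whose symbols hold only letters and digits.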

How the data were processed

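RNA sequencing libraries of 12 cultures were made from TRIzol RNA with a kit that does not mark the strand. The authors deposited 1 table of raw read counts per gene; reads were aligned with HISAT2 2.0.4 to hg38, per the submitters' processing notes, while the counting tool and its gene annotation are not given in the sources used. All 12 columns matched a sample, with 0 columns unused. Genes were filtered with filterByExpr, scaled by TMM and fitted with 4 group means in edgeR 4.0.16 (R 4.3.3); 5 contrasts were tested with the quasi-likelihood F test and Benjamini-Hochberg adjustment over 20280 genes. The biological coefficient of variation was 19.7%. The fit was tested on simulated counts with the same spread in every gene and group. That test does not cover the uneven spread of the MKN1 libraries. DESeq2 1.42.0, limma 3.58.1, other scalings, filters, a replicate block and leaving out each library were alternatives. Depth of 28604966 to 51604215 counts makes 3 counts worth 0.0591 to 0.109 CPM. For each list, up to 3 called genes of largest change per line, without overlap and with at least 5 CPM, were named, plus SRF, MRTFA and MRTFB; FHL1, FOS in AGS and the family genes were named after their values were seen. The members and lists were chosen with earlier results of these data known. The families, and the shares by longest transcript, were added after seeing the data. The summary of 1 gene list is not reported here.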

Additional observations from a re-analysis of the deposited data

Results flagged for a closer look

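For 19 of the genes named, the treatment effects of the 2 lines differed by a test of the difference itself (edgeR, adjusted over all genes). Values are effects in MKN1 minus effects in AGS on the log2 scale, and none of the 10 cytoskeletal genes is among them, CNN1 being left out at its floor. Of all genes 15.7% were called for such a difference. Most of the named genes were chosen for a call and a large change with treatment in 1 line, which favours a called difference. The 10 genes were taken whatever their values, so that the 2 counts cannot be set against each other.

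The difference was positive for TAGLN2 at 1.02 (adjusted p = 0.00528), FOS at 1.18 (adjusted p = 0.00336), FOSB at 1.55 (adjusted p = 0.0389), RHOC at 0.87 (adjusted p = 0.00758) and DIAPH1 at 0.78 (adjusted p = 0.0047). It was also positive for the turnover genes CFL1 at 0.73 (adjusted p = 0.0352), PFN1 at 0.73 (adjusted p = 0.047), CAPZB at 0.67 (adjusted p = 0.0452) and CFL2 at 0.69 (adjusted p = 0.0296), and for MYL6 at 0.87 (adjusted p = 0.0414).

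The difference was negative for ANKRD1 at -4.50 (adjusted p = 0.000985), CCN2 at -2.98 (adjusted p = 0.00623), CCN1 at -1.83 (adjusted p = 0.0023) and AMOTL2 at -0.74 (adjusted p = 0.0302). It was negative as well for RHOB at -1.49 (adjusted p = 0.000994), KLF6 at -0.98 (adjusted p = 0.0239), TPM4 at -0.65 (adjusted p = 0.00653), MYL12A at -0.59 (adjusted p = 0.0331) and MPRIP at -0.54 (adjusted p = 0.0297).

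In all 12 fits that left out 1 library, the differences of ANKRD1, CCN1, CCN2, DIAPH1, FOS, RHOB, RHOC, TAGLN2 and TPM4 passed the threshold. The other 10 lost it in some of these fits. CFL2 passed in 7 of 12 (adjusted p up to 0.083), KLF6 in 6 (up to 0.0644), and AMOTL2 and MPRIP in 5 each (up to 0.0816 and 0.0799). CFL1 and FOSB passed in 4 each (up to 0.0944 and 0.0926), PFN1 in 3 (up to 0.122), and CAPZB, MYL6 and MYL12A in 2 each (up to 0.117, 0.105 and 0.0852).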

How the results depend on the processing

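Of 4229 values under alternative settings, 3634 kept their direction and side of the threshold or moved by less than the limit set for a count. The number of the 10 genes called higher in AGS was 0; it was 1 (VCL) with the DESeq2 test, 2 (VCL and TPM1) with only the groups compared in the fit, and 0 to 1 with 1 library left out, while the number called lower was 0 to 1. The number called lower in MKN1 was 2 with the DESeq2 test and 0 without a filter, with a replicate block and with only the groups compared; with 1 library left out it was 0 to 3. For the difference of effects, 1 gene (ACTB) was called lower with the DESeq2 test and after removal of the GC and length trend, and 0 to 2 with 1 library left out. Between treated lines 1 gene was called higher under a filter of 5 CPM in 3 libraries, because CNN1 drops out there. Uncalled values that changed sign were ACTG1 in AGS, 0.045 with the GC and length trend removed; CNN2 in MKN1, -0.002 with DESeq2 size factors, -0.002 with the DESeq2 test and -0.003 without a filter; TPM1 in MKN1, 0.03 with library totals, 0.005 with limma voom and 0.005 with the replicate block; and MRTFA in MKN1, -0.004 with limma voom and -0.006 with the replicate block. With 1 library left out, uncalled log2 values that changed sign ranged from -0.043 to 0.11 for ACTB and -0.497 to 0.096 for TPM2 in AGS, from -0.111 to 0.128 for CNN2, -0.204 to 0.299 for TPM1 and -0.124 to 0.119 for MRTFA in MKN1, from -0.899 to 0.101 for the difference of effects on ACTA2, and from -0.001 to 0.319 for ACTG1 between untreated lines. The cause was not tested. Deviations of libraries with the same replicate number had r from -0.05 to 0.076 in AGS and from -0.053 to 0.224 in MKN1. Libraries with different numbers had r from -0.127 to 0.102 in AGS and from -0.263 to 0.163 in MKN1. With 3 libraries a group these values cannot settle whether the numbers pair libraries. Under the replicate block ACTB in MKN1 was at -0.62 (adjusted p = 0.0977) and FOS in AGS at -0.52 (adjusted p = 0.0567). At this depth ACTA2, CNN1 and, in AGS, TPM2 rest on few counts.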
